A study of Mus musculus with 66 samples.

Results

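The nuclear genes for subunits of the mitochondrial respiratory chain and ATP synthase were followed through myogenic differentiation of C2C12 cells, a mouse myoblast line. Members were chosen by gene symbol alone: Ndufa, Ndufb, Ndufc, Ndufs and Ndufv genes with a number, Sdha to Sdhd, Cyc1, and all symbols that start with Uqcr, Cox4 to Cox8 or Atp5. This gave 85 of the 22489 genes in the mRNA-Seq table, of which 37 fell to complex I, 4 to complex II, 9 to complex III, 18 to complex IV and 17 to complex V. The symbol rule also takes in a few genes that are not subunits in the strict sense. Among them are Cox7a2l, which encodes an assembly factor of respiratory supercomplexes, and Atp5s and Atp5sl, whose proteins are not core parts of ATP synthase. By symbol, Ndufa4, whose protein associates with complex IV, and its paralog Ndufa4l2 were counted in complex I, also in its sums.

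The respiratory chain passes electrons from NADH (complex I) and succinate (complex II) through complex III and cytochrome c to oxygen at complex IV, and the proton gradient built on the way drives ATP synthase (complex V). Most subunits are encoded in the nucleus and the rest in mitochondrial DNA, and no gene with an mt- symbol was in the table. Heart and skeletal muscle carry isoforms of several complex IV subunits, among them Cox6a2, Cox7a1 and Cox8b, in place of the widely expressed Cox6a1, Cox7a2 and Cox8a. Differentiating myoblasts are known to move towards oxidative metabolism.

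Polyadenylated RNA was sequenced from unmodified C2C12 cells (WT) and from 9 Tet-On C2C12 lines with an H3 gene that is tagged with GFP at the N terminus and driven by a promoter inducible with doxycycline (Dox). The tagged H3 was H3.1, H3.2 or H3.3, or one of the variants H3mm16, H3mm13, H3mm12, H3mm11, H3mm7 and H3t. Growth (G) cells were kept in 20% fetal bovine serum and taken before confluence. Differentiated (D) cells were moved at confluence to 2% horse serum and taken 48 h later. Every line had 1 library in each state. The main fits took the 18 libraries of the GFP-H3 lines as separate units, although the libraries of a line are related. For the change with differentiation, a fit with the line as a replicate block is given beside. A property of the H3 variant cannot be told apart from one of the cell line that carries it. Values are FPKM, which are fragments per kilobase of transcript scaled to the fragments of the library, and the number of reads behind them is unknown. In bulk RNA, fewer cells of a type and less RNA per cell cannot be told apart. WT was kept out of the fits and is described on its own, because the paper names the mapping of the GFP-H3 reads only. Its values for several members also stood far from all 9 lines.

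The 8 markers of myoblasts and myotubes summed to 237 to 673 FPKM in growing lines and to 1693 to 10721 FPKM in differentiated lines, and 6 of them were called higher. Adipocyte markers stayed low, with sums of 0.679 to 5.13 FPKM in growth and of at most 1.94 FPKM after differentiation. Osteoblast markers summed to at most 1.51 FPKM in growth and reached 17.0 FPKM after differentiation. The 4 cardiac markers summed to 26.0 to 56.4 FPKM in growth and to 431 to 3201 FPKM after differentiation. Tnnt2, with 25.8 to 56.1 and 426 to 3187 FPKM, made up nearly all of these sums, and it and Tnni3 were the 2 cardiac markers that could be tested and were called higher. The part of other cell types in the results below was not tested.

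Of the 85 genes, 81 reached a mean of 1 FPKM over the 18 libraries of the GFP-H3 lines, and 64 of these had a median above 100 FPKM in growth. Cox8c was listed at 0 in every library. Cox4i2 and Cox6b2 stayed below 1 FPKM throughout, and Ndufa4l2 did not reach the mean. The members together made up 3.25% (H3t) to 4.24% (H3mm7) of all FPKM in growing lines and 3.74% (H3mm11) to 5.91% (H3mm12) in differentiated lines.

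Differentiation was accompanied by a rise of many members. A gene was called when its limma p-value on log2(FPKM + 1), adjusted by Benjamini-Hochberg over all 10931 genes tested, was below 0.05. By this rule 45 of 81 members (55.6%) were higher in differentiated cells and 0 were lower, against 32% higher and 29.7% lower over all genes tested. With unadjusted p below 0.05, the counts were 49 and 0, a threshold at which all genes were not counted. The median change was 0.40 on the log2 scale for the members and 0.04 for all genes tested, and 71 members had a change above 0. Over the 81 members, the change was larger for shorter transcripts (Spearman's rho -0.31). The longest transcripts of the members had a median of 861 bases, against 2314 bases over all genes of the annotation. The part of length in the rise was not tested. After quantile normalization 38 members were higher and 4 were lower, namely Atp5a1, Atp5b, Atp5g3 and Uqcrc1. Of all 10931 genes tested, 3368 were then higher and 3339 lower. With the line as a replicate block, 58 members were higher and 2, Cox6a1 and Ndufc2, were lower. The block fit called 3952 of all genes higher and 3628 lower. In 9 of 81 members (11.1%) all differentiated lines lay above all growing lines, close to the 11.4% seen over all genes.

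**Figure D1:**
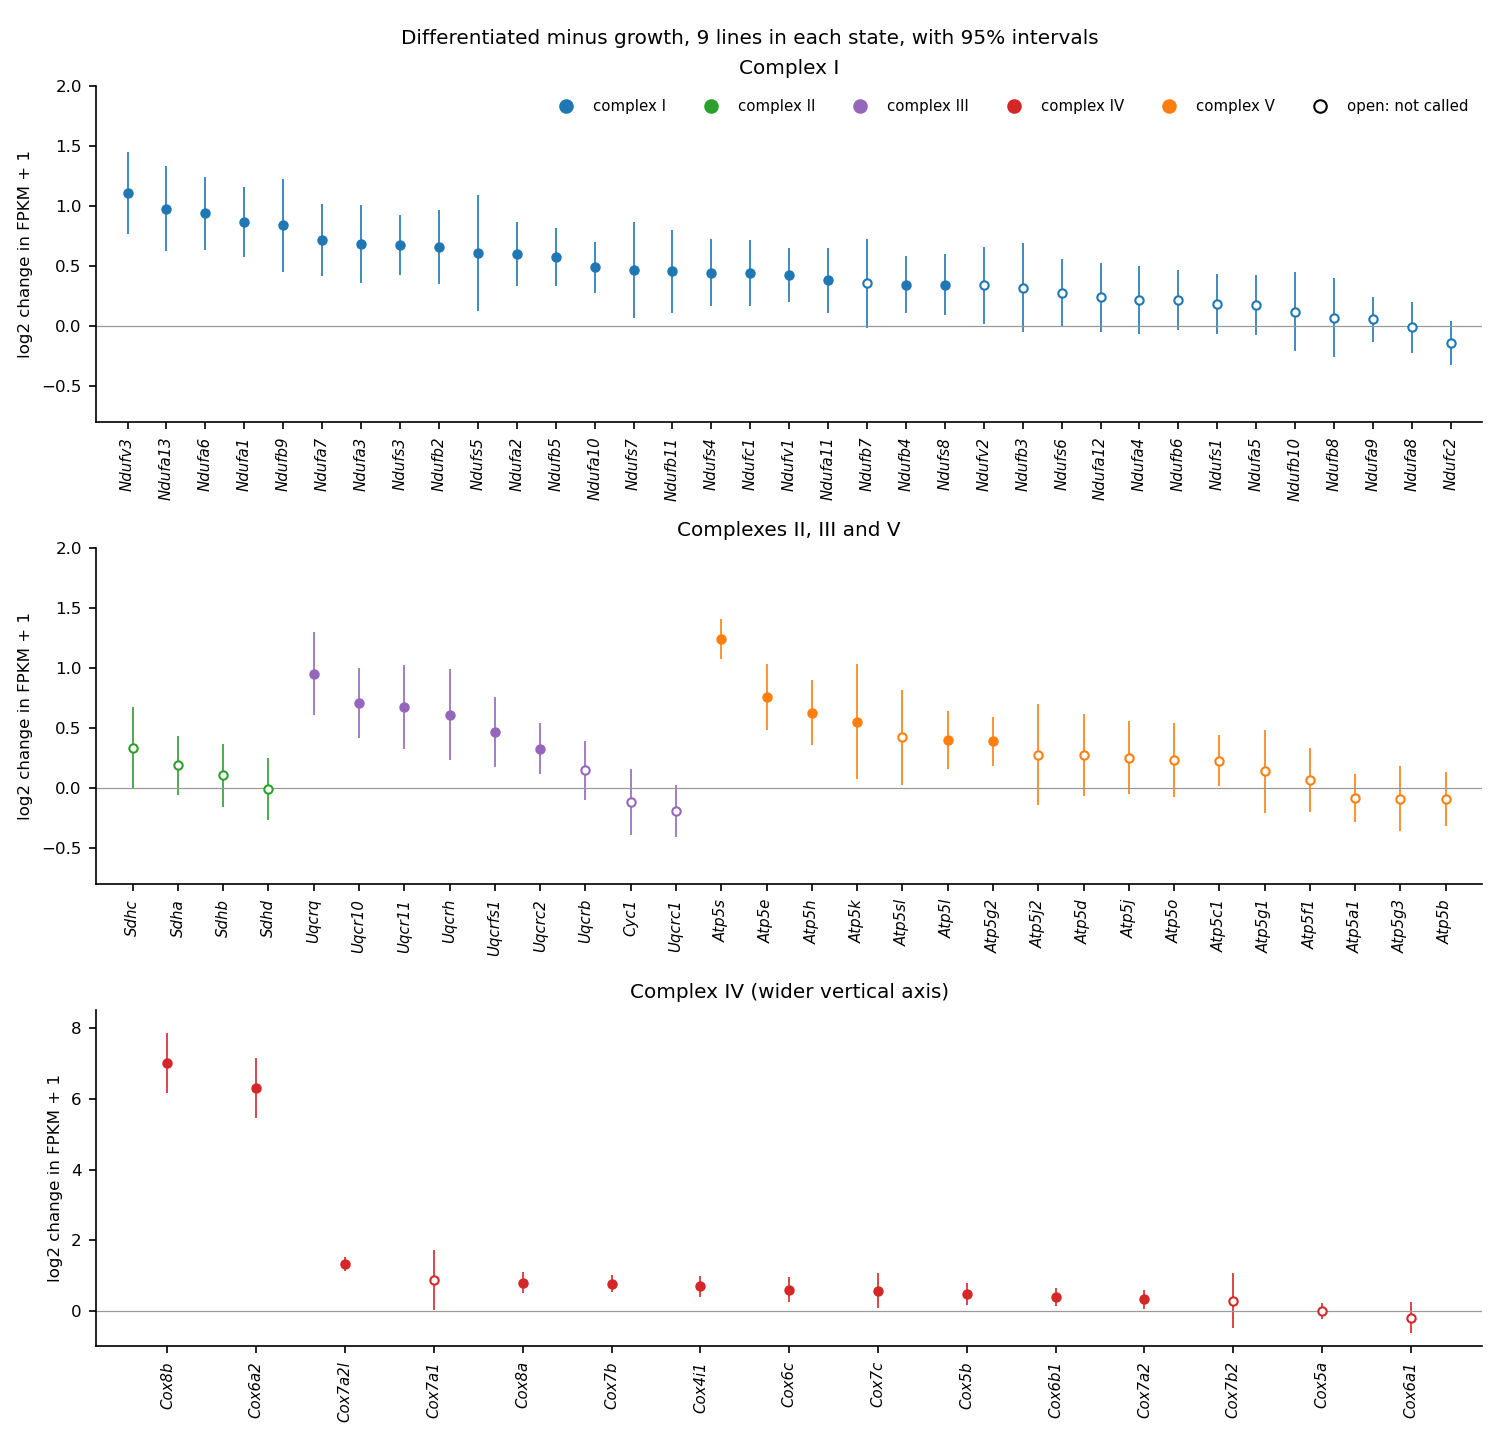
Fitted log2 change in FPKM + 1 from growth to differentiation, with 95% intervals, for 80 of the 81 members tested in 9 lines, grouped by complex; filled points were called and open points were not. Cox8b (6.999) and Cox6a2 (6.31) stand apart from all others, and none of the 4 complex II genes is filled.

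The complexes differed in how many of their genes were called. In complex I, 22 of 36 members tested were higher, with a median change of 0.43. Complex III had 6 of 9 and a median of 0.47, and complex IV had 11 of 15 and a median of 0.61. For complex V 6 of 17 (35.3%) were called, close to the share of all genes, with a median of 0.28. Complex II, which is also the citrate cycle enzyme succinate dehydrogenase, had 0 of 4, with a median of 0.15. With the line as a replicate block, the counts called higher were 29 of 36 in complex I, 1 of 4 in complex II, 6 of 9 in complex III, 12 of 15 in complex IV and 10 of 17 (58.8%) in complex V, so complex V lay nearer to the others. In the block fit 3952 of all 10931 genes tested were called higher. The difference between complexes was not tested.

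Summed over genes, complexes II and V had the lowest ratios of differentiated to growing cells in all 9 lines. The summed FPKM of complex IV rose in all 9 lines, by a factor between 1.24 (H3mm11) and 1.95 (H3mm12) with a median of 1.48. Complex III had a median ratio of 1.43 and complex I of 1.39, again above 1 in 9 of 9 lines. For complex V the median was 1.17 and 8 of 9 lines were above 1, and for complex II it was 1.21 with 7 of 9 above 1. H3mm11 was the line with the lowest ratio for each complex and H3mm12 the one with the highest. These are ratios of raw sums, and the summed FPKM of all genes also differed between libraries. As a share of all FPKM, the members rose in 7 of 9 lines. The share fell in H3mm7 (4.24% to 3.96%) and in H3mm11 (3.96% to 3.74%).

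**Figure D2:**
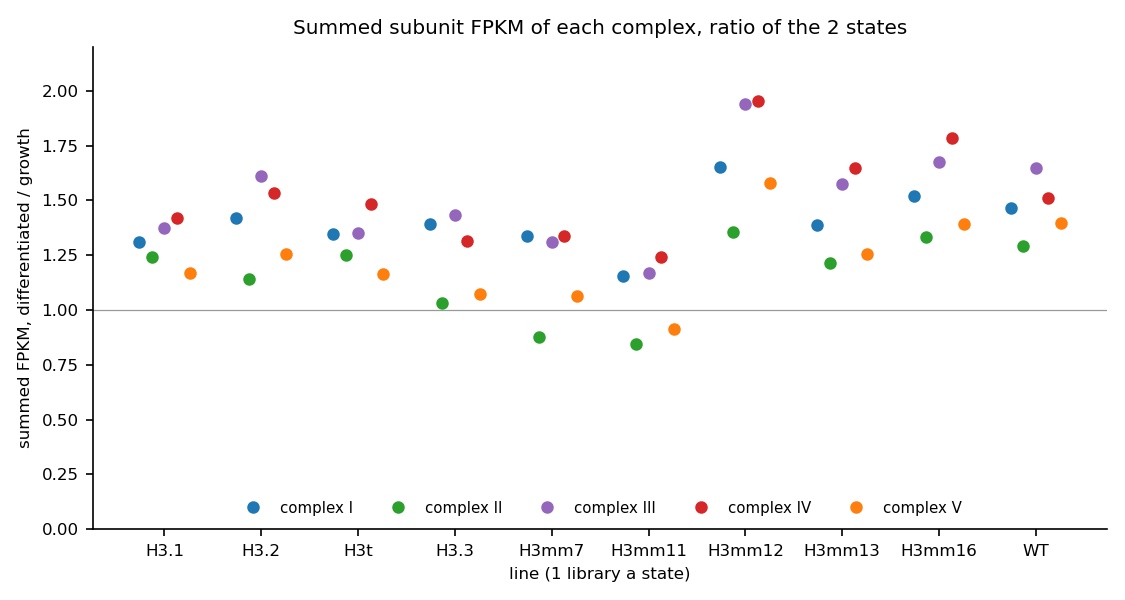
Ratio of summed FPKM in differentiated over growing cells for each complex (colours) in each of 9 GFP-H3 lines and WT, with 1 library a state; the horizontal line marks a ratio of 1. All 5 ratios are highest in H3mm12, and H3mm11 has ratios below 1 for complexes II and V.

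Core subunits showed both patterns. In complex I, the flavoprotein subunit Ndufv1 ranged from 74.4 to 102 FPKM in growing lines with a median of 90.02 and from 95.4 to 173 FPKM with a median of 115 after differentiation, a change of 0.43 (SE 0.11, adjusted p = 0.00206). Ndufs1, the large iron-sulfur subunit, changed by 0.19 (SE 0.12, adjusted p = 0.187) and its values overlapped between states, at 46.4 to 66.3 and 45.4 to 95.8 FPKM. A change of at least 1 was reached by 6 members, as by 8.8% of all genes tested in this direction.

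Ndufv3, an accessory subunit of the NADH-binding module, was at 51.1 to 142 FPKM in growth and at 149 to 262 FPKM after differentiation, without overlap and with a change of 1.11 (SE 0.16, adjusted p = 7.96e-06). Every differentiated line thus lay above every growing line for Ndufv3.

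None of the complex II genes passed the test. Sdhc, a membrane anchor, had a median of 183 FPKM in growth and 211 FPKM after differentiation, and its change of 0.34 was not called (SE 0.16, adjusted p = 0.0792) unless the line entered as a replicate block (SE 0.09, adjusted p = 0.00447). The flavoprotein Sdha changed by 0.19 (adjusted p = 0.17), the iron-sulfur subunit Sdhb by 0.11 (adjusted p = 0.467) and the second anchor Sdhd by -0.00 (adjusted p = 0.982). The intervals for Sdha, Sdhb and Sdhd cover 0 and reach at most 0.44.

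In complex III, the Rieske iron-sulfur protein Uqcrfs1 rose from a median of 103 to a median of 147 FPKM, with a change of 0.47 (SE 0.14, adjusted p = 0.00638). Cyc1, the cytochrome c1 subunit, was not called (-0.12, SE 0.13, adjusted p = 0.456) and lay at 249 to 396 FPKM in growth and 215 to 416 FPKM after differentiation. Both sets of values overlap between the states.

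The alpha and beta subunits of ATP synthase, which form its catalytic head, were among the few members with a change below 0. Atp5b, the beta subunit, which carries the catalytic sites, lay at 1351 to 1687 FPKM in growth and 1170 to 2043 FPKM after differentiation (-0.09, SE 0.11, adjusted p = 0.494). Atp5a1, the alpha subunit, lay at 444 to 624 and 378 to 611 FPKM (-0.08, SE 0.10, adjusted p = 0.481). Neither was called, and the lines were divided: Atp5a1 was higher after differentiation in 4 of 9. In contrast Atp5s, at 2.56 to 3.80 FPKM in growth and 6.68 to 9.46 FPKM after differentiation, rose by 1.24 (SE 0.08, adjusted p = 9.95e-11) with no overlap.

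The largest changes by far were those of 2 muscle isoforms of complex IV. Cox8b was at 0 in 3 growing lines and at most at 2.01 FPKM (H3mm7). After differentiation it ranged from 70.1 FPKM in H3t through a median of 127 FPKM to 686 FPKM in H3mm12. The fitted change was 6.999 (SE 0.41, adjusted p = 2.41e-11). Since growth values were at or near 0, the size of this change depends on the pseudocount, and it was 10.23 with a pseudocount of 0.01 FPKM.

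Cox6a2 behaved in the same way. In growth its highest value was 0.747 FPKM in H3.3, and 3 lines were at 0. After differentiation it ranged from 15.9 FPKM in H3t through a median of 112 FPKM to 309 FPKM in H3.3, with H3mm7 next at 308 FPKM. The change was 6.31 (SE 0.41, adjusted p = 8.61e-11). For both genes the states did not overlap in any line, and WT behaved alike, with Cox8b going from 0 to 166 FPKM and Cox6a2 from 0.0558 to 93.9 FPKM.

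The pair of muscle isoforms did not rank the lines alike. Cox6a2 was highest in H3.3, H3mm7 and H3mm11, at 309, 308 and 147 FPKM, whereas Cox8b in these lines was at 125, 76.7 and 105 FPKM. Cox8b was highest in H3mm12, H3mm16 and H3mm13, at 686, 444 and 404 FPKM, where Cox6a2 was at 82.2, 92.6 and 128 FPKM. H3t was the lowest line for both. The summed myoblast and myotube markers were also highest in H3mm12, H3mm13 and H3mm16, at 10721, 7863 and 7082 FPKM, and lowest in H3mm11 at 1693 FPKM. With 1 library of each line, the difference in order has no replicate check.

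As a share of each isoform pair, Cox6a2 made up at most 0.105% of Cox6a1 plus Cox6a2 in growing lines. After differentiation its share was 18.2% ± 9.23 (SD, n = 9), from 4.57% in H3t to 29.9% in H3.3, and it was 16.7% in WT. The share of Cox8b in Cox8a plus Cox8b was at most 0.224% in growing lines and 16.3% ± 10.2 (SD, n = 9) after differentiation, from 5.15% in H3mm7 to 33.7% in H3mm12, with 21.5% in WT. Thus the widely expressed form remained the larger part of both pairs in every line.

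**Figure D3:**
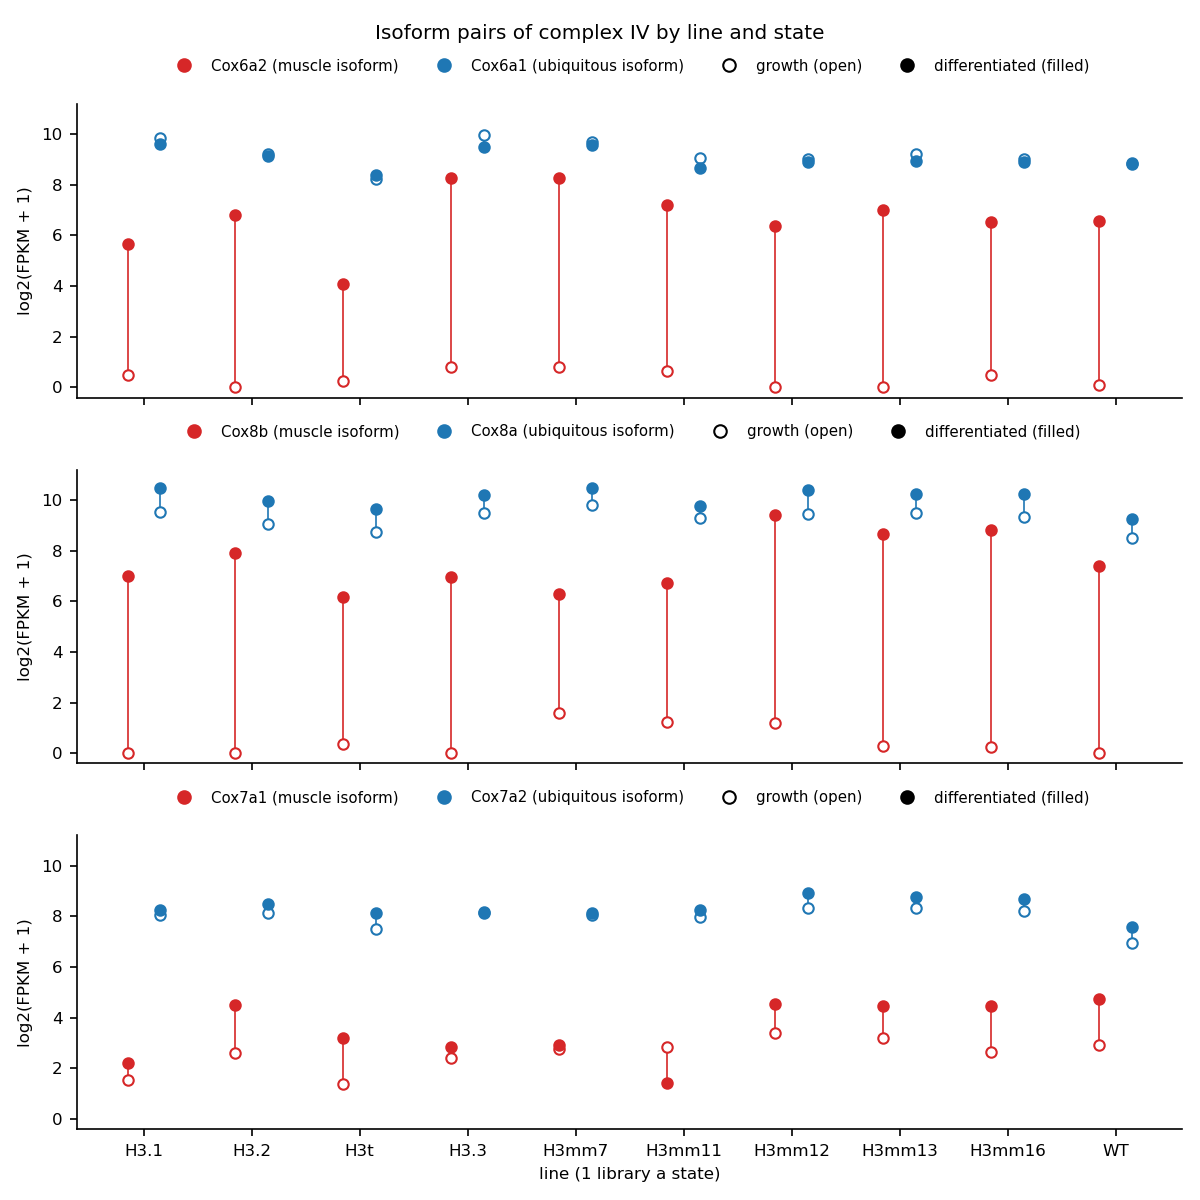
Levels of 3 isoform pairs of complex IV as log2(FPKM + 1) in each line, with growth as open and differentiated as filled points, muscle isoforms in red and widely expressed isoforms in blue. Cox6a2 and Cox8b start at or near 0 in every line and rise in every line, whereas Cox7a1 falls in H3mm11.

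The widely expressed partners differed from each other. Cox8a rose from a median of 702 to a median of 1200 FPKM (0.81, SE 0.14, adjusted p = 6.11e-05). Cox6a1 lay at 301 to 1015 FPKM in growth and 333 to 783 FPKM after differentiation, and its change of -0.18 was not called (SE 0.21, adjusted p = 0.469), whereas with the line as a replicate block it was called lower (adjusted p = 0.0466). Hence Cox8b rose beside a partner that also rose, and Cox6a2 beside a partner that was not called in the fit without a block.

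Cox7a1, the muscle form of subunit 7a, was already detected in growth. It had a median of 5.30 FPKM there and of 8.14 FPKM after differentiation, and the lines were split after differentiation: H3.2, H3mm12, H3mm13 and H3mm16 were at 20.9 to 22.5 FPKM and the other 5 lines at 1.68 to 8.14 FPKM. Its change of 0.87 was not called (SE 0.41, adjusted p = 0.0696), but was called with the line as a replicate block (adjusted p = 0.0262), with WT added (adjusted p = 0.0411) or without H3mm11 (1.16, adjusted p = 0.0139). Its share in Cox7a1 plus Cox7a2 was 1.83% ± 0.722 in growth and 3.17% ± 1.78 after differentiation (SD, n = 9), while WT had 5.18% and 11.95%. Cox7a2 itself rose by 0.34 (SE 0.13, adjusted p = 0.0314), a call that was lost without H3.2, H3mm12, H3mm13 or H3mm16 (adjusted p of at most 0.0653) and after either other normalization (adjusted p of at most 0.0718).

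Cox7a2l, the supercomplex assembly factor, rose without overlap between the states. Its growing lines lay at 148 to 202 FPKM and its differentiated lines at 356 to 515 FPKM, a change of 1.33 (SE 0.10, adjusted p = 4.36e-10). Cox7b rose likewise without overlap, from 147 to 213 FPKM to 253 to 468 FPKM (0.78, SE 0.12, adjusted p = 1.17e-05). Cox4i1, whose protein is a regulatory subunit of complex IV, rose from a median of 788 to a median of 1299 FPKM (0.70, SE 0.15, adjusted p = 0.000372), and Cox6b1 from 636 to 809 FPKM (0.40, SE 0.12, adjusted p = 0.00685). The call of Cox6b1 was lost after quantile normalization (adjusted p = 0.31). Cox5a was not called, with a change of -0.00 (SE 0.11, 95% interval -0.23 to 0.23, adjusted p = 0.991).

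Some isoforms were tied to particular lines. Cox7b2 was at 1.97 to 3.91 FPKM in growing H3t, H3.3 and H3mm7 and at 3.23 to 4.15 FPKM in the same lines after differentiation, against at most 1.26 FPKM in the other 6 lines in either state. Ndufa4l2, a paralog of Ndufa4, was at most at 0.249 FPKM in growth and reached 2.67 to 3.50 FPKM in differentiated H3.2, H3mm11, H3.3 and H3mm7, with 0.299 to 0.583 FPKM in the other 5 lines. Ndufa4 itself, whose protein associates with complex IV, was abundant at 534 to 1001 FPKM in growth and changed by 0.22 (SE 0.13, adjusted p = 0.166), which was called with the line as a replicate block (adjusted p = 0.0387).

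The 3 genes for subunit c, the ring of ATP synthase, encode one mature protein but differed in level. Atp5g1 had 744 FPKM in differentiated H3mm7 and 531 FPKM in H3.3, and 284 to 326 FPKM in the other 7 lines (0.14, SE 0.17, adjusted p = 0.477). Atp5g2 lay at 691 to 929 FPKM in growth and 883 to 1388 FPKM after differentiation (0.39, SE 0.10, adjusted p = 0.00203). Atp5g3 lay at 879 to 1216 and 774 to 1569 FPKM (-0.09, SE 0.13, adjusted p = 0.57). Only Atp5g2 of the 3 was called in the main fit. After quantile normalization Atp5g2 was not called (0.086, adjusted p = 0.348), and Atp5g3 was called lower (-0.358, adjusted p = 0.0147).

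Proximal promoters were read for 69 of the 85 members from RefSeq on GRCm38.p6, as 250 bases before to 50 bases after each start. Cox6a2 and Cox4i1 were among those not matched. They were searched on both strands for the core of the NRF1 motif (GCGCATGC), an ETS core (CCGGAAG) and an E-box of the kind bound by myogenic factors (CAGCTG), motifs that do not overlap in letters. NRF1 and the ETS factor GABP are known regulators of respiratory genes. The NRF1 core was in 10 of 69 members (14.5%) and in 3.05% of all 27025 promoters, the ETS core in 16 of 69 (23.2%) against 9.93%, and the E-box in 6 of 69 (8.70%) against 18.3%. Members called higher and members not called held the NRF1 core in 6 of 37 and 4 of 31, the ETS core in 10 of 37 and 6 of 31, and the E-box in 2 of 37 and 4 of 31.

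These 30-base windows, with the motif in capitals, show the E-box of the muscle isoform Cox8b beside motifs of its partner Cox8a, of Cox6a1 and of 2 members discussed below. They are printed 5′ to 3′ on the strand of the gene.
Cox8b (E-box, chr7:140900447-140900476, minus strand): gtgacaggagaCAGCTGcagctctccaccc
Cox8a (ETS, chr19:7217603-7217632, minus strand): tttccgaaataCTTCCGGctcgggcgtccg
Cox6a1 (NRF1 core, chr5:115349102-115349131, minus strand): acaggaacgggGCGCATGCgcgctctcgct
Ndufa6 (NRF1 core, chr15:82354356-82354385, minus strand): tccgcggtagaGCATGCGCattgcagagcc
Atp5g2 (NRF1 core, chr15:102671071-102671100, minus strand): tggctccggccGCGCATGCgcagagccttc

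A match of this length is a description of the letters and was not taken as a binding site. In Cox8b the E-box starts 19 bases before the transcription start.

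The lines were then compared by the type of H3 they carry, since most new variants resemble H3.3 in sequence: 6 H3.3-type lines (H3.3 itself and all H3mm lines) against 3 H3.1/H3.2-type lines (H3.1, H3.2 and H3t). In growth, limma called 0 of 81 members, against 0.247% of all genes tested. An unadjusted p below 0.05 was reached by 8 members, by 2 without H3t and by 14 without H3.3. How many of all genes reach it was not counted, so these counts have no background. The changes were nevertheless above 0 in 76 of 81 members, with a median of 0.24 against -0.01 for all genes, although members share their libraries and are not independent. In 11 members (13.6%) the H3.3-type lines all lay above the others, against 5.95% of all genes, and in 0 members did they all lie below. The summed muscle markers also lay apart in growth, at 237 to 294 FPKM in H3.1/H3.2-type lines and 332 to 673 FPKM in H3.3-type lines. Of these 8 markers, Myog, a regulator of myogenic differentiation, was called higher in H3.3-type lines (2.56, SE 0.45, adjusted p = 0.0245), and the median difference was 0.82. Their part in the pattern of the members was not tested.

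After differentiation, 2 members (2.47%) were called higher in H3.3-type lines and 0 lower, against 1.02% and 1.47% of all genes. Ndufa6, an accessory subunit of complex I, lay at 278 to 404 FPKM in H3.1/H3.2-type lines and at 451 to 640 FPKM in H3.3-type lines (0.64, SE 0.14, adjusted p = 0.0317). Cox7a2l lay at 356 to 364 FPKM and 432 to 515 FPKM (0.40, SE 0.10, adjusted p = 0.0494). The groups did not overlap for these genes, as for 3 members in all (3.70%) against 3.16% of all genes, but neither call held under all settings. After quantile normalization the adjusted p-values were 0.124 for Ndufa6 and 0.344 for Cox7a2l, and without H3t they were 0.151 and 0.176.

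For Cox6a2 the differentiated H3.3-type lines lay at 82.2 to 309 FPKM and the others at 15.9 to 112 FPKM, and the difference of 1.77 missed the threshold (SE 0.48, adjusted p = 0.0577). The median difference over the 81 members was 0.24, with 71 above 0, but after quantile normalization it was 0.06 with 48 above 0. No interaction of type and differentiation was called by limma, in the members or in all genes, so the rise itself was not shown to differ between types. Cox6a2 was the only member with an unadjusted p below 0.05 for it (1.56, SE 0.68, adjusted p = 0.512). The summed muscle markers overlapped between types after differentiation, at 2255 to 4833 FPKM in H3.1/H3.2-type lines and 1693 to 10721 FPKM in H3.3-type lines.

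The lines also differed within types. In growth, the median deviation of the members from the mean of the 9 lines was lowest in H3t (-0.24) and highest in H3mm7 (0.23). After differentiation it was highest in H3mm12 (0.48), where 77 of 81 members lay above the mean, followed by H3mm16 (0.22) and H3mm13 (0.14). H3t (-0.27), H3mm11 (-0.26), H3.1 (-0.21) and H3.3 (-0.20) were lowest. Over all genes tested, these medians stayed between -0.04 and 0.03 in the 18 libraries. Thus H3mm11 and H3.3 lay with H3.1 and H3t, apart from H3mm12, H3mm13 and H3mm16. Between them, near the mean, were H3mm7 (0.02) and H3.2 (-0.005). In H3t the deviation went with transcript length over the 81 members (Spearman's rho 0.40 in growth and 0.34 after differentiation). In WT, against the same means, rho was 0.28 and 0.26. Each rho is over members that share 1 library, and the part of length in the low values was not tested.

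**Figure D4:**
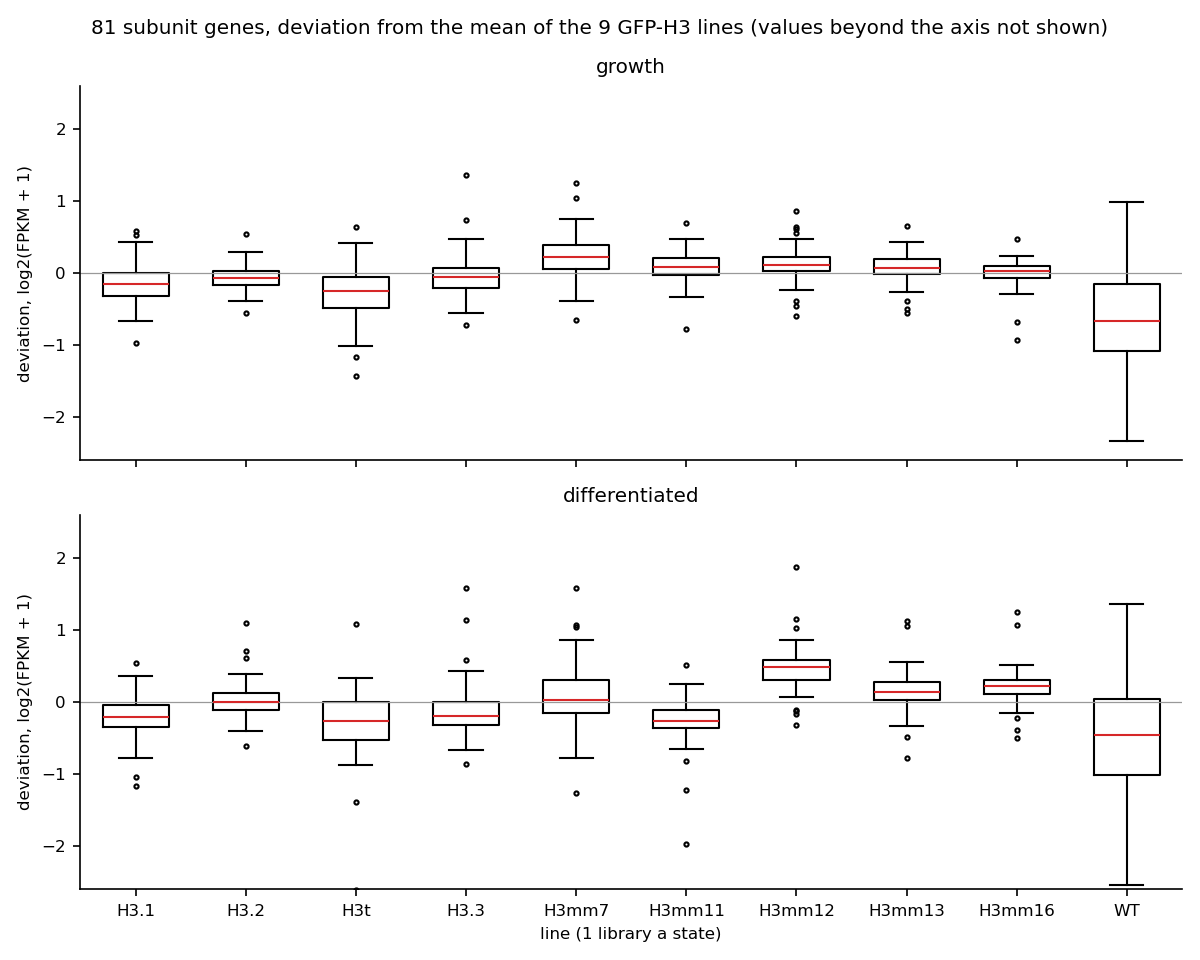
Deviation of 81 members from the mean of the 9 GFP-H3 lines on log2(FPKM + 1), by line and state, with boxes from the lower to the upper quartile, medians in red and whiskers to 1.5 times the box height. The box of H3mm12 lies above 0 after differentiation and that of WT reaches far down in both states; 12 values of WT and 1 of H3t lie beyond the axes.

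Other genes of mitochondrial biology were read against the 32% higher and 29.7% lower over all genes tested. Of 31 assembly factors of the respiratory complexes, 13 (41.9%) were higher and 6 (19.4%) lower, with a median change of 0.09, and only Cox14, a complex IV assembly factor, changed by at least 1 (1.06, SE 0.19, adjusted p = 7.64e-05). Of 16 citrate cycle genes, 6 (37.5%) were higher and 5 (31.2%) lower. Of 12 regulators of mitochondrial biogenesis tested, 2 (16.7%) were higher and 4 (33.3%) lower. The 76 genes of mitochondrial ribosomal proteins had 5 (6.58%) higher and 24 (31.6%) lower, with a median of -0.11, so that the share lower was close to that of all genes and the share higher was below it.

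WT lay low over the members as a set and far below the lines in some of them. Its median deviation from the mean of the 9 lines was -0.66 in growth and -0.47 after differentiation. Over all genes tested these medians were 0.05 and 0.08. In WT 19 of 81 members lay above that mean in growth and 22 after differentiation. The members' share of all FPKM in WT, 3.88% and 4.99%, lay within the range of the lines. The summed FPKM of all genes was lower in WT, at 409319 and 465247. In both states 5 of the 85 members were at least 8-fold below the lowest of the 9 lines, as were 205 of all 22489 genes. The rule also asked for more than 1 FPKM in the lowest growing line. How many of all genes reach that minimum was not counted, so the 2 counts are not on a like base. Atp5g2 was at 0.124 FPKM in growing WT and 0.150 FPKM in differentiated WT, where the lines had 691 FPKM or more. Cox7c was at 3.73 and 5.73 FPKM and Ndufb4 at 1.58 and 3.71 FPKM in WT, while the lowest values in the lines were 265 FPKM and 229 FPKM.

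Atp5l, a subunit of the membrane part of ATP synthase, was at 10.9 and 9.92 FPKM and Cox5b at 13.9 and 42.8 FPKM in WT. In the 9 lines these 5 genes were called higher after differentiation, with changes from 0.35 (Ndufb4, SE 0.12, adjusted p = 0.0135) to 0.58 (Cox7c, SE 0.24, adjusted p = 0.041), and with WT added to the fit none was called (adjusted p of 0.405 or more). The call of Cox7c was also lost without any single one of H3.2, H3t, H3mm7, H3mm12, H3mm13 and H3mm16 (adjusted p of at most 0.0791). It was lost too without a filter (0.066) and after median-of-ratios scaling (0.0515). After quantile normalization the calls of Atp5g2 (adjusted p = 0.348), Atp5l (0.0887) and Cox7c (0.134) were lost. Ndufs5, named after its values were seen, was at 0.000571 FPKM in growing WT and at 64.8 FPKM in differentiated WT. The cause of these low WT values was not tested.

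All 6 of these genes have near-identical copies of their coding sequence elsewhere in the mm9 genome (at least 90% identity over at least 80% of the coding bases). Atp5l had 14 copies, Cox7c 5, Atp5g2 4, Cox5b and Ndufb4 2 each and Ndufs5 1. Among members above 20 FPKM, the 43 without a copy had a median ratio of WT to the median line of 0.790 in growth and 0 were below an eighth. The 23 members with 1 to 2 copies had a median ratio of 0.473 with 3 below an eighth. The 9 members with 3 or more copies had a median of 0.210 with 3 below an eighth. The ranges overlapped, with highest ratios of 1.60 without a copy, 1.06 with 1 to 2 copies and 1.78 with 3 or more. The last is that of Ndufb3, which has 3 copies. The part of the copies in these ratios was not tested. In all, 32 members have at least 1 such copy, and how reads that fit several places were counted was not measured here. By contrast, Cox6a2 (mm9 chromosome 7, 135348950 to 135349880) and Cox8b (mm9 chromosome 7, 148084842 to 148086345) have no such copy.

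**Figure D5:**
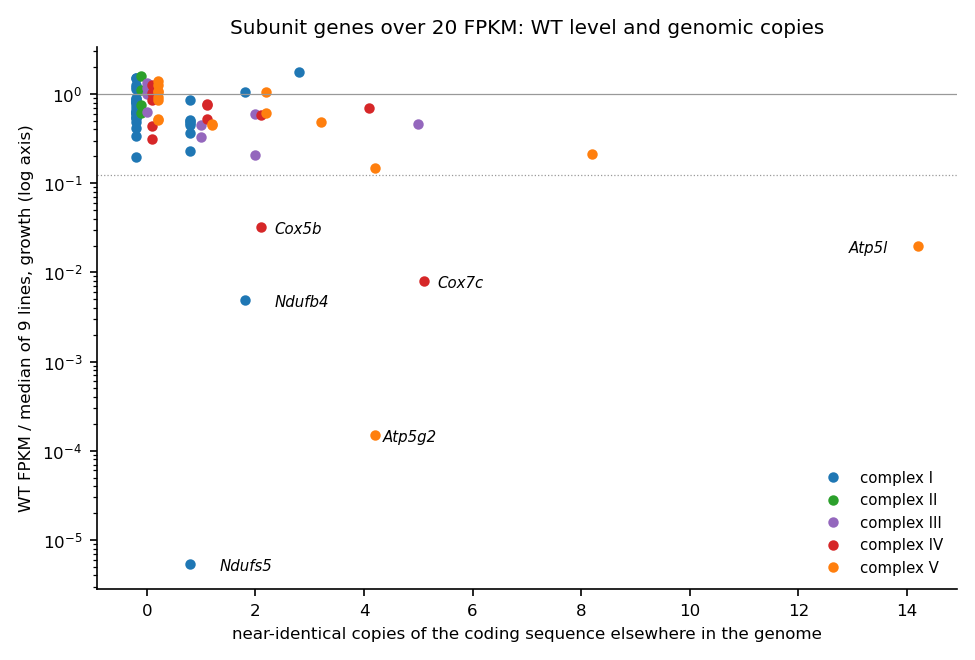
Ratio of WT FPKM to the median of the 9 lines in growth (log axis) against the number of near-identical copies of the coding sequence, for 75 members above 20 FPKM, with small horizontal offsets by complex. The dotted line marks a ratio of an eighth, and the 6 named members below it have at least 1 copy.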

How the data were processed

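mRNA-Seq of 20 libraries was used, and the 2 small tables of 3′-seq, which list histone genes, and the ChIP-seq were not used here. Per the paper and the submitters' processing notes, TopHat 2.0.8 was the aligner for the GFP-H3 lines, with mm9 as genome, and the FPKM values deposited by the authors come from cuffdiff in Cufflinks 2.0.1. How WT reads were mapped is not given in the sources used here. A column headed H3mmT was taken as H3t, the one line without a column of its name.

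Genes with a mean of at least 1 FPKM in the 18 GFP-H3 libraries were tested on log2(FPKM + 1) with limma 3.58.1 (trend and robust) in R 4.3.3, checked on simulated data. The fit of differentiated against growing cells held state alone, and the fits of type held each combination of state and type. Fold changes on this scale understate changes of low genes. In an alternative fit the lines were used as a replicate block. The deviations of a line's 2 libraries from their state means correlated at 0.206 to 0.445. In 9 of 9 lines the best match was the line itself, as is natural for the same cell line. The main fits leave this pairing out. With replicates that are single libraries of lines, p-values measure the spread between lines.

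Copies of coding sequences were found with minimap2 2.31 in mm9 with the GENCODE vM1 annotation. Named members are isoform families, core subunits, the 5 largest called changes in each direction, members called between types, and members far below the lines in WT. The values of 1 member are not reported here. The members and lists were chosen with earlier results of these data known. Tables and plots were made in Python 3.11.15 with pandas 2.3.3, numpy 2.4.6 and matplotlib 3.10.9.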

Additional observations from a re-analysis of the deposited data

Results flagged for a closer look

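Among the named members, 63 groups of 9 lines with a median of at least 1 FPKM were examined for a line far from the others, a rule that chance meets in about 1 of 20 groups, and 3 groups met it. All were the lowest value of growing H3t. Cox7a2 was at 181 FPKM there and at 254 to 319 FPKM in the other 8 lines. Ndufa6 was at 165 FPKM, with the nearest line at 223 FPKM, and Ndufb4 at 229 FPKM, with the nearest line at 287 FPKM. H3t was also the lowest of the 9 growing lines in 39 of 81 members, and in 24.0% of all genes tested.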

How the results depend on the processing

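The count of 45 members called in differentiated against growing cells lay between 40 and 47 when 1 line was left out. It was 6 when a change of at least 1 was also asked for, and 34 with WT added. Over all genes, the calls higher ranged from 3225 without H3mm16 to 3550 without H3mm7, and were 3336 with WT added. With the line as a replicate block all 45 remained and 15 were added. The median change of the members lay between 0.31 and 0.46 under all alternatives run. For the types after differentiation, the 2 calls became 1 with a pseudocount of 0.01 FPKM, without a filter or with a minimum mean of 5 FPKM. They became 0 after quantile normalization and 0 with a change of at least 1. With 1 line left out, 0 to 4 members were called: 0 without H3.1, H3t, H3mm11, H3mm13 or H3mm16, 1 without H3.3 and 4 without H3.2. The calls over all genes also moved, from 112 higher and 161 lower in the main fit to 78 and 160 after quantile normalization. Without H3.1 they were 5 and 3, without H3t 12 and 15, and without H3.2 286 and 486. The member counts for growth and the interaction stayed at 0 in all settings run. Of 33 named members in 626 comparisons with the main values, 570 kept direction and call. The sign turned for 3 members that were not called in either: Cox5a (0.0146 with WT added, -0.0267 to 0.0361 without 1 line), Sdhd (0.0277 with WT added, -0.0441 to 0.0546 without 1 line) and Ndufa4 (-0.0698 after quantile normalization). The cause was not tested. Of the 18 called, 11 stayed called apart from the fold minimum. Leaving out 1 line gave mean shares after differentiation of 16.8% to 19.9% for Cox6a2, 14.1% to 17.7% for Cox8b and 2.86% to 3.50% for Cox7a1. Read depth is unknown, so no limit can be set on genes listed at 0.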
